A study of Rattus norvegicus with 10 samples.

Results

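Genes of leukocyte trafficking were described in the rat cerebral cortex after electroacupuncture (EA). The set consisted of the 10 rows of the deposited gene table, among 32623, that carried the symbols Cxcl12, Cxcr4, Ackr3, Cx3cl1, Icam1, Vcam1, Alcam, Mcam, Cd99 and Cyba. Each symbol had 1 row, and all 10 were among the 15169 genes tested. A gene was tested if its FPKM, a fragment density corrected for transcript length and library size, reached 0.5 in 5 or more of the 10 libraries.

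Adult male Sprague-Dawley rats received EA, a current passed between needles at the acupoints Baihui and Shuigou of the head, at 3 mA and alternating 2 and 100 Hz for 40 min (5 libraries). Control rats were only bound for those 40 min (5 libraries). All rats were then anesthetized with pentobarbital and perfused with saline, and poly(A) RNA of the stripped cortex was sequenced. The interval between the end of EA and dissection was not given, nor was how cages or days fell across the groups. Separate animals are implied by the numbered labels but not stated, so the p-values measure the spread between these libraries.

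Leukocytes leave the blood in steps. Selectins slow them, chemokines displayed on the vessel wall activate their integrins, and the integrins then grip ICAM and VCAM molecules before the cell passes between or through endothelial cells. In the healthy brain this traffic is scant, and several of these genes have other work there: CXCL12 guides migrating neurons, and CX3CL1 is the membrane-bound ligand by which neurons signal to microglia.

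Deposited counts summed to 47843590 to 61707722 per library. Summed FPKM of structural RNAs (small nuclear RNA, snoRNA and similar symbols, without ribosomal RNA) moved with the groups. It was 633, 587, 601, 590 and 658 in controls and 709, 1282, 687, 732 and 1602 in EA rats, so every EA library stood above every control library and EA 2 and EA 5 stood far above the rest. Results were therefore also computed with this sum as a covariate and without EA 2 and EA 5. The 2 most alike libraries still differed by a mean chi-square of 23.6 per gene, and none was counted as a duplicate. In bulk tissue, fewer cells of a type and less RNA per cell cannot be told apart.

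Of the 10 genes, Cyba, Cd99, Cxcl12 and Ackr3 had lower FPKM in every EA library than in any control library, and no gene was higher in this way. Over all 15169 genes tested, 2.25% were separated in the lower and 0.850% in the higher direction. On counts scaled by TMM (trimmed mean of M values), 3 of the 4 remained apart, against 1.62% of all genes, and Ackr3 overlapped. None of the 10 passed the main test, edgeR's quasi-likelihood F test with Benjamini-Hochberg adjustment over all 15169 genes and a fold above 1.2, by which 0.0198% of genes (3 genes, all higher) and 0.00% in the lower direction were called. At an unadjusted edgeR p under 0.05, 4 of the 10 were lower (7.15% of all genes) and 0 were higher (6.59%). DESeq2, the tool of the study, called 3 of the 10 lower (0.639% of all genes), namely Cyba, Cxcl12 and Cd99, and limma on log2(FPKM + 0.5) called 0 (0.0264% of all genes called in either direction). The study singled out these 3 genes on the same samples, so their direction here is not independent evidence.

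**Figure D1:**
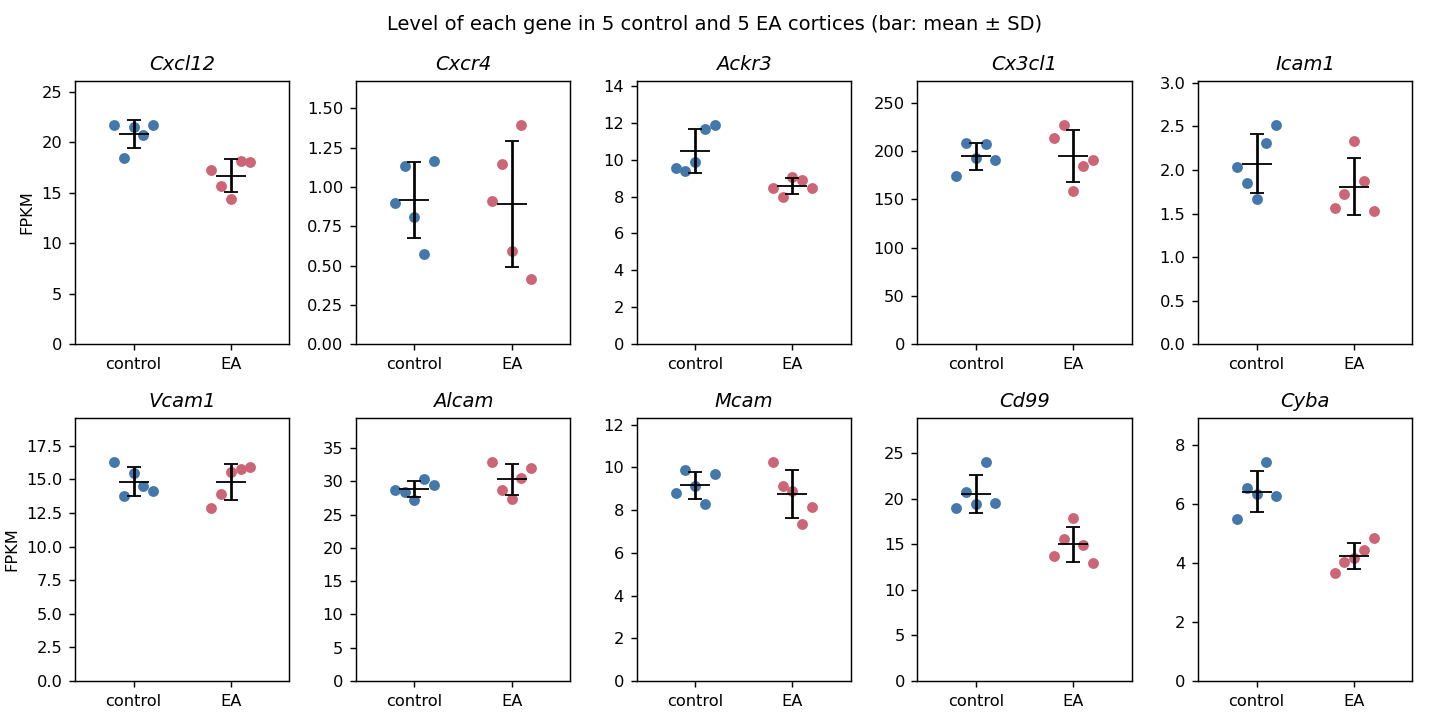
FPKM of the 10 genes in each library, with control rats in blue, EA rats in red and black bars for the mean ± SD of 5 libraries; each vertical axis starts at 0. The points of the groups are separate for Cxcl12, Ackr3, Cd99 and Cyba and mingle for the other 6 genes.

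The 250 bases before the start were examined for 9 of the 10 genes, those matched in the RefSeq promoter table of build GRCr8; Mcam had no entry there. The Cxcl12, Cd99 and Cyba windows are printed because these genes were called by DESeq2, and the Vcam1 window because Vcam1 is an inducible adhesion gene whose levels overlapped. Only bases before the outermost start of each gene are printed, which is why Cd99 is shorter. The Cxcl12 window is chr4:152060531-152060780 on the plus strand, and those of Cd99 (chr20:56005141-56005338), Cyba (chr19:67404215-67404464) and Vcam1 (chr2:206742784-206743033) lie on the minus strand. Capitals mark matches on either strand to GGGCGG, which Sp1 family proteins bind, to the core promoter element TATAAA, and to GGNNNTTCC, which forms much of the NF-kB consensus. These motifs were chosen after the sequences had been seen.
Cxcl12: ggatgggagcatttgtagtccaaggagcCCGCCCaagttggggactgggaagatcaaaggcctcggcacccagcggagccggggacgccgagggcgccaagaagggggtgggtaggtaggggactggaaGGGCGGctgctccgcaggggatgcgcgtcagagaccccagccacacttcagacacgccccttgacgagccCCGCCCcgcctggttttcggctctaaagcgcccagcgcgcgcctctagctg
Cd99: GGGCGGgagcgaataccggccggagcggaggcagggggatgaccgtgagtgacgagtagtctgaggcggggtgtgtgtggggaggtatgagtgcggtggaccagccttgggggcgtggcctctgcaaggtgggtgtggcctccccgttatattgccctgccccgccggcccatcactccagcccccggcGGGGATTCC
Cyba: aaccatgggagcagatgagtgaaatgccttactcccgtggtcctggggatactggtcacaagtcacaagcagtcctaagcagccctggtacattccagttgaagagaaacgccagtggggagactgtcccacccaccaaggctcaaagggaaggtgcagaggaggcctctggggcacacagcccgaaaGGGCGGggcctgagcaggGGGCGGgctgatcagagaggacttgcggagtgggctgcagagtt
Vcam1: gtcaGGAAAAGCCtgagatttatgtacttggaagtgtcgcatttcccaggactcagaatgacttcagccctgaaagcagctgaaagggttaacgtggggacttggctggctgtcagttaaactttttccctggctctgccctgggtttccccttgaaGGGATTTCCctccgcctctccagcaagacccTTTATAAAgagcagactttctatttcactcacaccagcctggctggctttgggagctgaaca
GGGCGG occurred in the full windows of 6 of the 9 genes (30.5% of all 33469 promoters), including Cxcl12 (3 matches), Cyba (2) and Cd99 (3, of which 1 lies in the printed bases). TATAAA occurred in 5 of 9 (12.9% of all promoters) and GGNNNTTCC in 4 of 9 (15.4%). The Vcam1 window held 2 TATAAA matches, which overlap in part and lie on opposite strands, and 2 GGNNNTTCC matches, but no GGGCGG. Cxcl12 and Cyba held neither TATAAA nor GGNNNTTCC, while Cd99 had 1 GGNNNTTCC match and no TATAAA. Such matches describe letters and not bound sites.

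Cxcl12, the chemokine that retains and attracts cells bearing CXCR4, lies on chromosome 4 (149261044-149273891, plus strand, Rnor_6.0, as do the gene positions that follow). Its FPKM was 21.7, 18.5, 21.5, 20.7 and 21.7 in the control libraries and 17.3, 15.6, 14.3, 18.1 and 18.0 in the EA libraries. The lowest control library stood just above the highest EA library. The mean was 20.8 ± 1.38 (SD, n = 5) in controls and 16.7 ± 1.64 in EA rats, with an edgeR log2 fold change of -0.30 (SE 0.07, adjusted p = 0.174). DESeq2 gave an adjusted p of 0.00968.

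Ackr3 (chromosome 9, 97355924-97367445, plus strand) encodes an atypical receptor that binds CXCL12 and removes it without the usual G protein signal. Its FPKM was 9.54, 9.38, 9.87, 11.7 and 11.9 in controls and 8.46, 7.96, 9.04, 8.88 and 8.44 in EA rats. Controls 4 and 5 stood highest, while the other 3 controls lay less than 1 FPKM above EA 3. The edgeR log2 fold change was -0.27 (SE 0.08, adjusted p = 0.224), and the adjusted p of DESeq2 was 0.101.

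Cxcr4 (chromosome 13, 45314933-45318878, minus strand), the signalling receptor for CXCL12 on leukocytes and migrating neurons, was the lowest of the 10. Its FPKM was 0.898, 1.14, 0.809, 0.576 and 1.17 in controls and 0.912, 1.15, 0.590, 1.39 and 0.417 in EA rats. Both extremes were EA libraries, and the 95% interval of the edgeR log2 fold change, -0.75 to 0.71 around -0.02 (SE 0.32, adjusted p = 0.986), was the widest of the 10. Only 44 to 140 deposited counts stood behind each value.

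The FPKM of Cxcl12 was 1.78 to 2.27 times that of Ackr3 in controls and 1.58 to 2.14 times in EA rats, so the ligand and its atypical receptor kept overlapping ratios. Relative to Cxcr4 the ligand was 16.3 to 36.0 times as high in controls and 13.0 to 43.3 times in EA rats, also overlapping.

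Cx3cl1 (chromosome 19, 10644244-10653800, minus strand), the chemokine that is anchored to neuronal membranes and released by sheddases, was the most abundant of the set. Its FPKM was 174, 209, 193, 207 and 191 in controls and 214, 227, 159, 184 and 190 in EA rats. The group means, 195 ± 14.1 and 195 ± 26.6 (SD, n = 5 each), were alike although EA libraries spread more widely and held both the highest and the lowest value. The edgeR log2 fold change was 0.02 (SE 0.08, 95% interval -0.16 to 0.21, adjusted p = 0.932).

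Among the adhesion molecules, Cd99 (chromosome 20, 56192390-56197025, minus strand) encodes a surface glycoprotein that leukocytes and endothelial cells share and that acts late in the passage between endothelial cells. Its FPKM was 18.9, 20.8, 19.5, 24.1 and 19.5 in controls and 13.7, 15.6, 17.9, 14.9 and 13.0 in EA rats. EA 3 came nearest to the controls. The mean differed by -27.0% in EA rats, with an edgeR log2 fold change of -0.43 (SE 0.11, adjusted p = 0.178), and the adjusted p of DESeq2 was 0.0200.

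Icam1 (chromosome 8, 22035256-22047059, plus strand), the endothelial ligand of the integrin LFA-1, had low levels of 2.03, 1.85, 1.66, 2.31 and 2.52 FPKM in controls and 1.57, 1.72, 2.34, 1.88 and 1.53 in EA rats. EA 3 exceeded all but 1 control library. The edgeR log2 fold change was -0.17 (SE 0.16, 95% interval -0.55 to 0.20, adjusted p = 0.681).

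Vcam1 (chromosome 2, 219071193-219097619, minus strand), the endothelial ligand of the integrin VLA-4, ranged from 13.7 to 16.3 FPKM in controls and from 12.8 to 15.9 in EA rats. Its mean was 14.8 in both groups (SD 1.05 and 1.36), with an edgeR log2 fold change of 0.02 (95% interval -0.16 to 0.19, adjusted p = 0.946).

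Mcam (chromosome 8, 48472824-48481001, plus strand), an adhesion molecule of endothelium and pericytes also called CD146, ranged from 8.30 to 9.87 FPKM in controls and from 7.34 to 10.3 in EA rats. Its edgeR log2 fold change was -0.04 (95% interval -0.25 to 0.17, adjusted p = 0.883).

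Alcam (chromosome 11, 50781127-50985083, plus strand), a CD6 ligand of barrier endothelium that growing axons also carry, ranged from 27.3 to 30.4 FPKM in controls and from 27.3 to 33.0 in EA rats. It had the largest positive estimate of the 10, an edgeR log2 fold change of 0.09 (95% interval -0.02 to 0.21, adjusted p = 0.446), and its groups overlapped.

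Cyba (chromosome 19, 55249616-55257876, minus strand) encodes p22phox, the membrane subunit that stabilizes the catalytic NOX proteins of the superoxide-producing NADPH oxidases. Its FPKM was 5.49, 6.53, 6.35, 7.43 and 6.27 in controls and 3.67, 4.02, 4.15, 4.44 and 4.83 in EA rats. Every EA library was below control 1, the lowest of the controls. The mean was 6.41 ± 0.696 (SD, n = 5) in controls and 4.22 ± 0.438 in EA rats, a difference of -34.2%. This was the largest difference of the 10, with an edgeR log2 fold change of -0.58 (SE 0.12, adjusted p = 0.172) and a DESeq2 adjusted p of 0.00968. It rested on 259 to 328 deposited counts per control library and 159 to 220 per EA library.

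**Figure D2:**
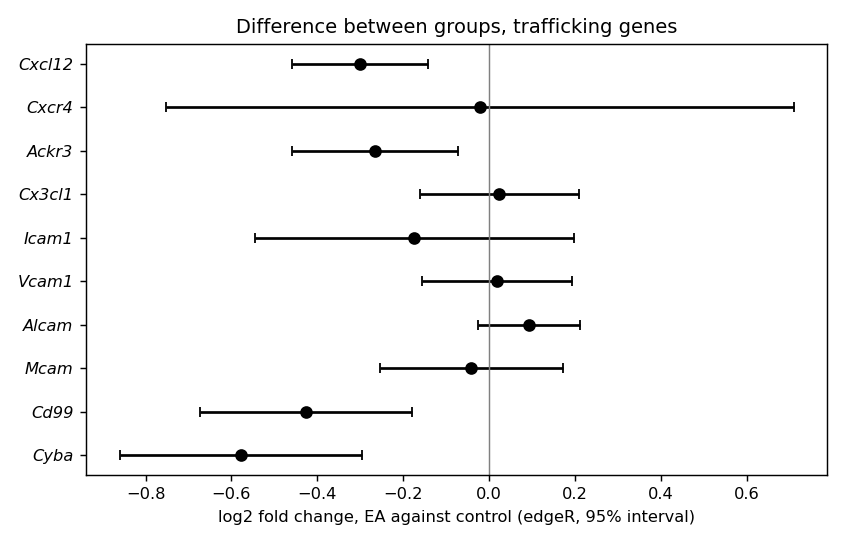
The horizontal axis gives the edgeR log2 fold change (EA against control) of each gene with its 95% interval, from the SE and 8 degrees of freedom, and 5 libraries a group. The unadjusted intervals of Cyba, Cd99, Cxcl12 and Ackr3 lie below 0, and that of Cxcr4 is the widest.

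By mean FPKM over the 10 libraries the order was Cx3cl1 (195), Alcam (29.6), Cxcl12 (18.7), Cd99 (17.8), Vcam1 (14.8), Ackr3 (9.51), Mcam (8.96), Cyba (5.32), Icam1 (1.94) and Cxcr4 (0.904). Most neighbours in this order kept it in 10 of 10 libraries. The exceptions were Cxcl12 over Cd99 (7 libraries), Cd99 over Vcam1 (8) and Ackr3 over Mcam (7), which this order does not separate. Of the 10 estimates, 7 were below 0, against 50.5% of all genes, and their median log2 fold change was -0.11, against -0.00 over all genes tested.

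The DESeq2 calls did not hold in every fit with a library left out. The loss of a particular library and the smaller number of libraries were not told apart. With each of the 10 libraries left out in turn, an alternative chosen after seeing the data, DESeq2 called Cxcl12 in 7 fits, Cyba in 8 and Cd99 in 4. The DESeq2 adjusted p of Cxcl12 reached 0.0551 without control 3 and 0.0522 without control 5, and without EA 3 its fold was under 1.2 (log2 fold change -0.26). That of Cyba was 0.0561 without control 4 and was not given by DESeq2 without EA 5. Cd99 was called without control 1, EA 2, EA 3 or EA 4, and without another library its adjusted p lay between 0.0523 (without control 5) and 0.0975 (without EA 5), with 0.0552 without control 3, 0.0718 without control 2, 0.0730 without EA 1 and 0.0912 without control 4. Without both EA 2 and EA 5, the DESeq2 adjusted p was 0.0619 for Cxcl12 and 0.182 for Cd99, so neither was called, and DESeq2 gave none for Cyba, which was therefore neither called nor lost. The log2 fold changes without this pair were -0.61 for Cyba, -0.30 for Cxcl12 and -0.37 for Cd99 by DESeq2, so the estimates were close to those from all libraries. With the structural RNA sum as a covariate, edgeR gave -0.64 for Cyba, -0.33 for Cxcl12 and -0.31 for Cd99, each still under an unadjusted p of 0.05. Ackr3 was at -0.21 with this covariate and at -0.22 without EA 2 and EA 5 by edgeR, and passed that unadjusted p in neither fit (adjusted p = 0.832 and 0.585). The structural RNA sum was higher in every EA library than in any control library, so the fit with it separates covariate from group poorly. The part of structural RNA in these differences was not tested beyond these values. The log2 fold changes themselves stayed below 0 under every one of the 34 alternatives for Cxcl12, Ackr3, Cd99 and Cyba.

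Partners of these molecules were then examined in 9 lists of pathway genes, 159 in all, of which 91 passed the filter on low values. By edgeR 0 of the 91 were called, while 4 were lower and 1 higher at an unadjusted p under 0.05 (7.15% and 6.59% of all genes). DESeq2 called 1 lower (0.639% of all genes), Bcam, a laminin-binding adhesion molecule of vessels and epithelia. Bcam FPKM was 11.8 ± 1.15 (SD, n = 5) in controls and 9.39 ± 0.288 in EA rats, with separate groups and an edgeR log2 fold change of -0.30 (adjusted p = 0.174; DESeq2 adjusted p = 0.0187).

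**Figure D3:**
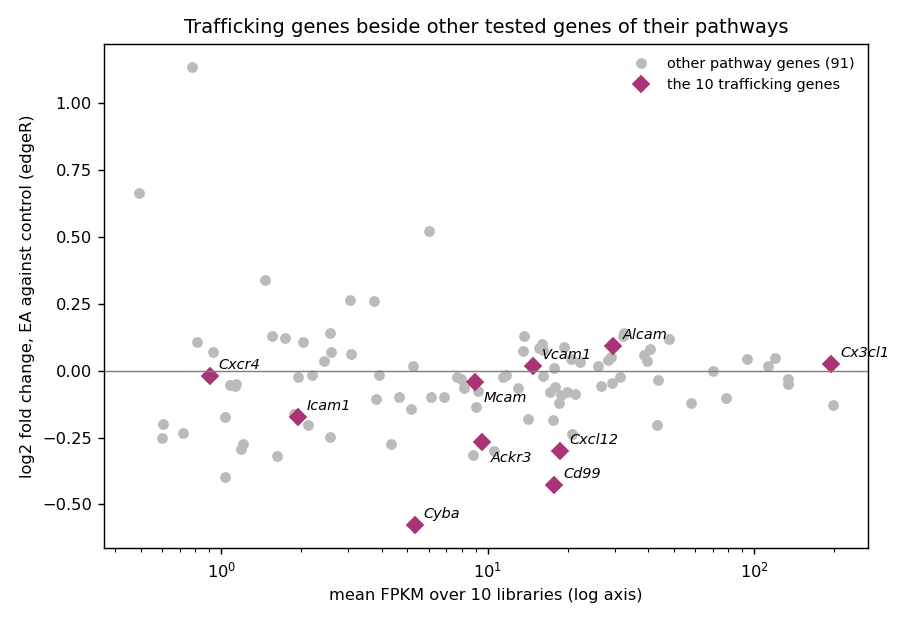
Each point is a gene, placed by its mean FPKM over 10 libraries (horizontal, log axis) and its edgeR log2 fold change, EA against control (vertical); diamonds are the 10 trafficking genes and grey points the other 91 tested genes of the pathway lists. Cyba has the lowest fold change of all points shown, and Cx3cl1 lies near 0 at the right.

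The counterparts on the leukocyte or microglial side showed no call. Cx3cr1, the microglial receptor for CX3CL1, was at 18.9 ± 1.75 FPKM (SD, n = 5) in controls and 16.4 ± 2.00 in EA rats, with an edgeR log2 fold change of -0.18 (SE 0.09, adjusted p = 0.394). Itgal, the LFA-1 chain that binds ICAM1, and Itga4, the VLA-4 chain that binds VCAM1, were under the filter, with means of 0.243 and 0.267 FPKM in controls. Itgb2 and Itgb1, the partner chains of LFA-1 and VLA-4, and Itgam, the alpha chain of Mac-1, which also binds ICAM1, had edgeR log2 fold changes of 0.07, 0.06 and 0.34 (adjusted p = 0.863, 0.765 and 0.410). Cd6, the receptor for ALCAM, was near the filter at 0.785 FPKM in controls and 0.659 in EA rats.

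Of the chemokine ligands 8 of 32 passed the filter, and of the receptors 4 of 19 in the table. Cxcl14, a chemokine of interneurons, had a log2 fold change of -0.10 and Ccl17 one of 1.14 from FPKM means of 0.485 and 1.07 (edgeR adjusted p = 0.465 and 0.435). None of either list passed even an unadjusted p under 0.05. The same was true of the selectin list, in which the endothelial selectins Sele and Selp were under the filter and the 4 tested genes were all below 0 without a call.

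Cyba differed from the other tested oxidase genes in its estimate. Cybb (the catalytic subunit NOX2), Ncf1 (p47phox), Rac1 and Rac2 had edgeR log2 fold changes of -0.05, -0.20, 0.04 and 0.03, with adjusted p of 0.951, 0.614, 0.627 and 0.962. Cybb and Ncf1 were low, at 1.16 and 2.29 FPKM in controls, and Nox4 was at most 0.01 FPKM in the mean of either group. The difference between Cyba and these genes was not tested.

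The sheddases of CX3CL1 and VCAM1, Adam10 and Adam17, had edgeR log2 fold changes of 0.08 and -0.10 (adjusted p = 0.734 and 0.642). Dpp4, the peptidase that clips CXCL12, had an edgeR log2 fold change of 0.13 (adjusted p = 0.768). Cd99l2, the relative of Cd99, ran from 0.123 to 10.1 FPKM across the libraries of both groups, so its log2 fold change of 0.52 had an SE of 0.84. Among genes downstream of docking, Actn4, an actin crosslinker, was lower (log2 fold change -0.12, adjusted p = 0.223), as was Rapgef3, the exchange factor EPAC1 (-0.24, adjusted p = 0.290), and Rock2, a kinase that acts on the cytoskeleton, was higher (0.14, adjusted p = 0.331). Icam5, the neuronal telencephalin beside Icam1 in the genome, was also lower (-0.20, adjusted p = 0.340). These 4 were under an unadjusted p of 0.05 by edgeR but were not called. By FPKM the groups were separate for Actn4 and overlapped for Rapgef3, Rock2 and Icam5. In the list of NF-kB and interferon drivers of adhesion genes, 11 of 14 tested genes were below 0 (50.5% of all genes) and none was under that p, with Rela at -0.14 (adjusted p = 0.488).

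Markers of the cells that carry these molecules were summed in the same libraries. Endothelial markers summed to 134 to 156 FPKM in controls and 122 to 135 in EA rats, a log2 difference of -0.17 (exact permutation test of the group labels, two-sided p = 0.0159, adjusted over 9 marker lists p = 0.143). Of 14 endothelial markers 12 were in the table and tested, and all 12 had an edgeR estimate below 0 (50.5% of all genes). At an unadjusted p under 0.05, 3 of the 12 were lower (7.15% of all genes). DESeq2 called 2 of them lower (0.639% of all genes), Tie1 (-0.46, adjusted p = 0.00360) and Erg (-0.50, adjusted p = 0.0223). Both had lower FPKM in every EA library than in any control library, as 2.25% of all genes did. With the endothelial level as a covariate in edgeR, the log2 fold change of Cyba was -0.80 (adjusted p = 0.387) and that of Cd99 -0.47 (adjusted p = 0.442), both under an unadjusted p of 0.05. In the same edgeR fit Cxcl12 was at -0.23 (adjusted p = 0.520) and Ackr3 at -0.21 (adjusted p = 0.635), both above that unadjusted p. The endothelial sums of the groups hardly overlapped, so this fit separates covariate from group poorly. Pericyte and smooth muscle markers summed to 176 to 203 FPKM in controls and 164 to 191 in EA rats (log2 difference -0.10, exact p = 0.119). Of these 10 markers 9 were below 0 (50.5% of all genes). At an unadjusted edgeR p under 0.05, 4 of the 10, Cspg4, Notch3, Kcnj8 and Vtn, were lower (7.15% of all genes), the same count as among the trafficking genes. Oligodendrocyte markers summed to 972 to 1414 and 856 to 1112 FPKM (log2 difference -0.26, exact p = 0.0476, adjusted p = 0.214). All 6 of 6 were below 0 (50.5% of all genes). Of these 6, 3 (Mbp, Mobp and Cnp) were lower at that unadjusted edgeR p (7.15% of all genes). Single genes made up much of the pericyte and oligodendrocyte sums. In controls Rgs5 had 99.8 FPKM of a mean sum of 191, and Mbp 770 of 1167.

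Microglia, a source of Cyba and Cx3cr1, had marker sums of 246 to 259 FPKM in controls and 213 to 272 in EA rats (log2 difference -0.04, exact p = 0.563), and Trem2 alone of its 11 markers was lower at an unadjusted p under 0.05 (-0.33, edgeR adjusted p = 0.223), a share near the 7.15% of all genes. Trem2 FPKM was also lower in every EA library than in any control library. Blood leukocyte markers summed to 51.5 to 54.1 and 48.7 to 63.9 FPKM, nearly all of it Lyz2, which microglia and other macrophages also express. Cd79a and Cd79b of B cells, Nkg7 of cytotoxic cells and Mpo of neutrophils were at 0 in all 10 libraries. The T cell genes Cd3d, Cd3e and Cd3g had group means of at most 0.107 FPKM. Other markers of the list were detected at low levels. S100a9 and S100a8, which neutrophils also express, had means of 0.612 and 0.449 FPKM in controls and 0.402 and 0.412 in EA rats. Ptprc was at 0.802 in controls and 0.855 in EA rats, Cd2 at 0.173 and 0.0883, and Ms4a1 at 0.0282 and 0.0192. Haemoglobin genes, a sign of blood left after perfusion, summed to 7.84 to 44.5 FPKM in controls and 6.37 to 17.2 in EA rats (log2 difference -1.01, exact p = 0.111). All 3 tested haemoglobin genes had an edgeR estimate below 0 (50.5% of all genes). At an unadjusted edgeR p under 0.05, 2 of the 3 were lower (7.15% of all genes), Hbb (-1.28, adjusted p = 0.261) and Hba-a2 (-0.94, adjusted p = 0.340). Meningeal fibroblast, neuron and astrocyte markers overlapped between groups, with log2 differences of -0.20, 0.01 and 0.04 (exact p = 0.579, 0.913 and 0.841). Snap25 had 908 FPKM of the mean neuron sum of 1697 in controls. Of the 7 neuron markers, 2 were higher at an unadjusted edgeR p under 0.05 (6.59% of all genes), Gad2 (0.19, adjusted p = 0.254) and Gad1 (0.15, adjusted p = 0.336). None of the 9 lists passed an adjusted p of 0.05. The part of vessel, oligodendrocyte or blood content in the lower Cxcl12, Ackr3, Cd99 and Cyba was not tested beyond these values.

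**Figure D4:**
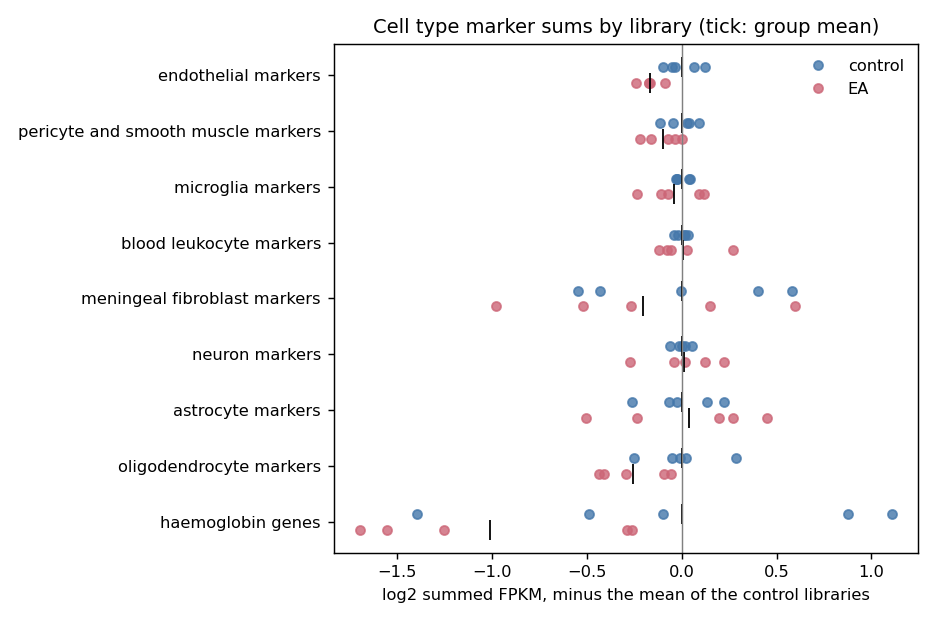
The horizontal axis gives the log2 summed FPKM of each of 9 marker lists minus the control mean, with 1 point per library (control blue, EA red) and black ticks for group means. The EA points of the endothelial list lie to the left with 1 overlapping the controls, and the haemoglobin points spread most.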

How the data were processed

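Poly(A) RNA of 10 cortex libraries (5 control, 5 EA) was sequenced as paired ends. The authors aligned reads to Rnor_6.0 with HISAT2, assembled them with StringTie and computed FPKM with ballgown. The deposited table holds a count and an FPKM for 32623 genes. How the authors drew the deposited counts from the assembly is not stated. Their total exceeds the reads listed by the study in every library, so they are not plain read counts, and tests on them treat them as such. An FPKM of 0.0001 was read as 0.

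Counts of the 15169 genes tested (99.9% of all counts) were compared with edgeR 4.0.16 (TMM, quasi-likelihood) in R 4.3.3, with calls set at a Benjamini-Hochberg p under 0.05 and a fold over 1.2. The SE is the log2 fold change divided by the root of F. DESeq2 1.42.0 and limma 3.58.1 on log2(FPKM + 0.5) were alternatives, which also included other scalings, filters, covariates and libraries left out. Marker sums were compared by exact permutation. All tests were two-sided. Counts were also simulated from these libraries with the spread that edgeR itself estimated. On them edgeR recovered 25 of 50 genes changed 1.5 times and 0 of 50 changed 1.2 times, with 1 false call. DESeq2 recovered 31 and 4 with 17 false calls, on 15169 genes. A gene changed 1.2 times could pass only if its fold was overestimated, because a call needed a fold over 1.2.

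The named genes were all 10 trafficking genes, their direct partners, the genes called in each pathway list and up to 4 tested genes of each list with the lowest edgeR p, besides markers a result turned on. The genes and lists were chosen with earlier results of these data known. Symbols without a match, such as Pecam1, Ccr2 and Ackr1, were not analysed here.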

Additional observations from a re-analysis of the deposited data

How the results depend on the processing

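Over all genes, edgeR called 3, DESeq2 166, edgeR with a replicate block or with the endothelial covariate 0, and edgeR without single libraries 1 to 5. The number of trafficking genes called was 0 by edgeR and limma under every setting run and 3 by DESeq2, and it ran from 0 to 3 over all fits with a library left out. Of the pathway genes DESeq2 called 1. Trafficking genes lower at an unadjusted p under 0.05 numbered 4, but 2 with the endothelial covariate (Cyba and Cd99), and 3 with the structural RNA covariate and 3 by edgeR without EA 2 and EA 5, Ackr3 being the gene lost in both. The share of all genes lower at that p was computed for the main edgeR fit alone (7.15%). The counts from the other fits therefore have no matching share, nor do the DESeq2 calls with a library left out. The replicate block changed no call of these genes. Libraries of the same number correlated at -0.00 to 0.06 in their deviations, so the numbers were not taken to pair the samples. Each gene had 1 row, so summing rows changed nothing.

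Estimates near 0 changed sign. Cx3cl1 was at -0.0071, -0.0072 and -0.0071 with limma at pseudocounts of 0.5, 0.1 and 1, at -0.041 with the structural RNA covariate, -0.0017 with the endothelial covariate, and -0.037 by edgeR and -0.038 by DESeq2 without EA 2 and EA 5. Without single libraries, by edgeR or DESeq2, it ran from -0.039 to 0.084. Vcam1 was at -0.0050, -0.0052 and -0.0048 with limma in the same order and -0.0016 when scaled by library total, and ran from -0.011 to 0.069 without single libraries. Cxcr4 was at 0.21 with the structural RNA covariate, 0.38 with the endothelial covariate and 0.099 (edgeR) or 0.097 (DESeq2) without EA 2 and EA 5, and from -0.23 to 0.16 without single libraries. Mcam was at 0.0038 and 0.080 with these covariates, and from -0.10 to 0.023 without single libraries. Icam1 was at 0.053 with the endothelial covariate.

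Of the marker sums, blood leukocyte markers were at -0.060 as a mean of log2 values, and meningeal fibroblast and neuron markers at 0.075 and -0.064 without EA 2 and EA 5. Without single libraries the sums of microglia ran from -0.082 to 0.0066, of blood leukocytes from -0.057 to 0.041, of neurons from -0.044 to 0.080 and of astrocytes from -0.067 to 0.17. The cause of these shifts was not tested. Cxcr4 rested on 44 to 140 counts a library, the fewest of the 10 genes, and its interval was the widest.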
